A study of Mus musculus with 12 samples.

Results

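Wnt and crypt stem cell genes were followed in the small intestine of PPARα-null and wild-type mice, fasted for 24 h or fed. They were Lgr5, Ascl2, Axin2, Sox9, Cd44, Ephb2, Ephb3 and Prom1, and every probe set of the array with 1 of these symbols was taken. Of the 8 genes, 7 had a probe set, 12 probe sets in all of 22690 on the array, and no probe set carried the symbol Ephb2. The 4 groups were PPARα-null fasted (129S4/SvJae), PPARα-null fed (129S4/SvJae), wild-type fasted (129S1/SvImJ) and wild-type fed (129S1/SvImJ), with 3 arrays each. All mice were males of 14 weeks, and RNA came from the small intestine over its full length, so crypt cells were a part of the tissue together with villus epithelium, muscle and immune cells. The wild-type and null mice were of different 129 substrains, and substrain and genotype cannot be told apart. The series text names AIN93M diet and the study's methods name standard chow, and neither source says how many mice stand behind 1 replicate.

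Wnt proteins bind Frizzled receptors and the co-receptors Lrp5 and Lrp6, which frees β-catenin from a destruction complex built on Axin and Apc. β-Catenin then enters the nucleus and, with TCF factors, switches on target genes. In the intestine this signal is strongest at the crypt base, where it maintains the stem cells, and it fades as cells move towards the villus. PPARα is a nuclear receptor activated by fatty acids, and it takes part in the response to fasting.

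The genotype was first checked on Ppara itself. Its probe set 1449051_at gave intensities of 13.2, 11.7 and 11.0 in PPARα-null fasted arrays, against 58.7, 48.1 and 30.8 in wild-type fasted arrays. It gave 6.84, 7.50 and 7.35 in PPARα-null fed arrays, against 19.9, 34.0 and 35.9 in wild-type fed arrays. The genotypes did not overlap in either feeding state, which bears on 1 contradiction in the labels, where the wild-type fasted arrays are described as knockout in a free text field and as wild-type in title and strain. Intensities are background-corrected values on a linear scale, and 20 was used as the minimum mean for a probe set to be tested. The median intensity of an array was 11.05 to 11.33 in the fasted arrays and 12.65 to 12.81 in the fed arrays, and the fasted and fed arrays appear to have been normalized apart, so each change upon fasting is given relative to a common shift of −0.32 (log2), and feeding state and normalization set cannot be told apart. Exocrine pancreas markers, from tissue that lies beside the duodenum, differed between arrays of 1 group, with summed intensities of 27620, 648.1 and 28630 in PPARα-null fasted replicates 1, 2 and 3.

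At the level of the array, the genes fell into a measurable and a faint part. Of the 12 probe sets, 5 had a mean over 20 in at least 1 group, and they belonged to Prom1, Cd44, Axin2 and Sox9. The other 7, which covered Lgr5, Ascl2, Ephb3 and a further probe set of both Axin2 and Cd44, lay under 20 in every group and were left out of the tests below. Values of different probe sets are not compared, since probes differ in brightness.

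**Figure D1:**
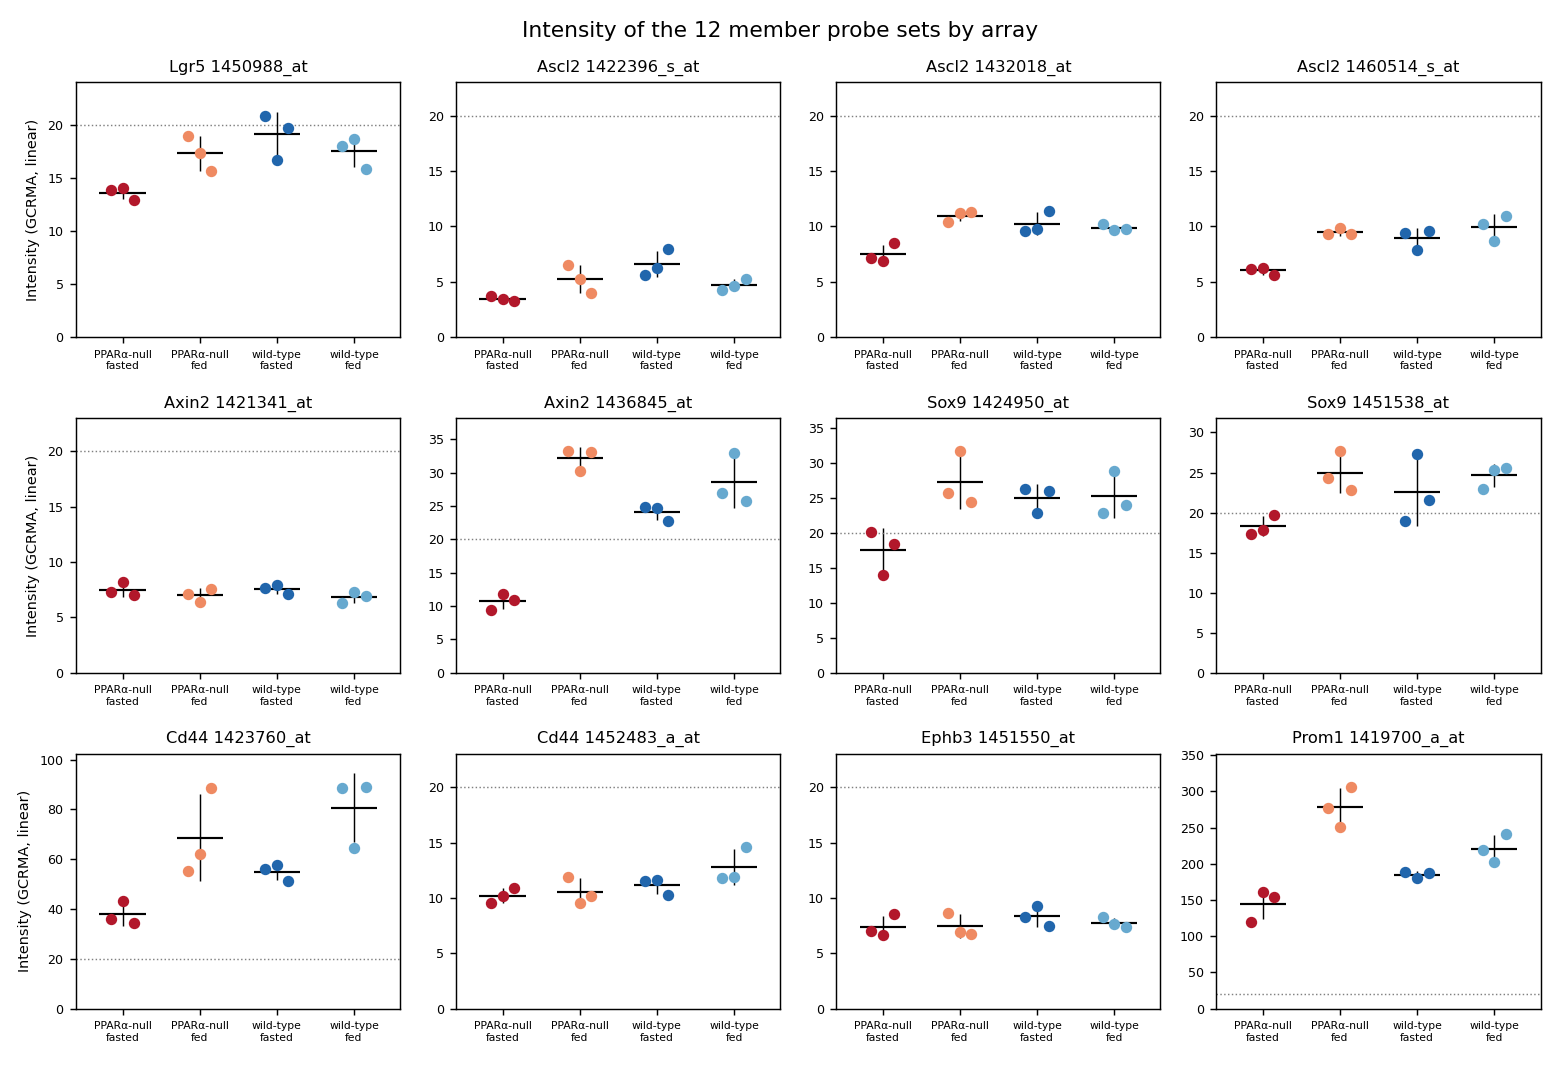
Intensity (linear scale, from 0) of the 12 probe sets in each array, with PPARα-null fasted, PPARα-null fed, wild-type fasted and wild-type fed arrays from left to right. Points are arrays, horizontal lines group means, vertical lines ± 1 SD (n = 3) and the dotted line the level minimum of 20. Axin2 1436845_at stands at 9.48 to 11.8 in the PPARα-null fasted arrays and over 22 in all others.

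Axin2 showed the largest difference among these genes. It encodes a scaffold of the β-catenin destruction complex that is itself switched on by β-catenin, and it is widely used as a readout of Wnt signalling. Probe set 1436845_at gave 9.48, 11.8 and 10.9 in PPARα-null fasted arrays, against 33.2, 30.2 and 33.1 in PPARα-null fed arrays. In wild-type mice it gave 24.9, 24.8 and 22.7 in fasted arrays, against 26.9, 32.9 and 25.8 in fed arrays. The 3 PPARα-null fasted arrays lay below all other arrays. In the values as deposited, 57.4% of all tested probe sets had these arrays wholly below the PPARα-null fed arrays. For 26.1% they were wholly below the wild-type fasted arrays. Relative to the common shift, Axin2 fell by 1.27 ± 0.11 (log2, SE) upon fasting in PPARα-null mice, a 2.42-fold decrease (limma, adjusted p = 1.3e-06). In wild-type mice the change was 0.08, with a 95% confidence interval of −0.16 to 0.32. The response in wild-type minus that in PPARα-null mice was 1.35 ± 0.15 (adjusted p = 8.9e-05). In fasted mice Axin2 was 2.26-fold lower in PPARα-null than in wild-type mice (log2 −1.17 ± 0.11, adjusted p = 5.6e-06). In fed mice the difference, PPARα-null minus wild-type, was 0.18 (95% interval −0.06 to 0.42). The other Axin2 probe set, 1421341_at, ran from 6.99 to 8.22 in PPARα-null fasted arrays and from 7.09 to 7.90 in wild-type fasted arrays. It lay under the level minimum in all 4 groups, so the fall in Axin2 rests on 1 probe set. Relative to the common shift this faint probe set was 0.41 (95% interval 0.20 to 0.62) for fasting in PPARα-null mice, the opposite direction to that of 1436845_at. With no minimum on level it was called higher there (limma, adjusted p = 0.0045), where 4794 of all 22690 probe sets were called higher and 2554 lower. In the values as deposited, with no shift taken off, this faint probe set was 0.09 ± 0.10. Its PPARα-null fasted and fed arrays overlapped. Between fasted genotypes 1436845_at passed the level minimum only through the wild-type fasted arrays, in which it was higher.

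Prom1 lay well above the level minimum in every array. It encodes prominin 1 (CD133), a membrane protein of cell protrusions that is found on crypt cells including stem cells. The intensity was 120.0, 160.5 and 154.4 in PPARα-null fasted arrays, against 276.4, 251.0 and 305.7 in PPARα-null fed arrays. In wild-type mice it was 188.3, 179.7 and 187.6 in fasted arrays, against 218.8, 203.1 and 241.3 in fed arrays. The PPARα-null mice thus had both the lowest arrays (fasted) and the highest (fed). Upon fasting Prom1 fell by 0.63 ± 0.12 in PPARα-null mice (1.55-fold, adjusted p = 0.00060), whereas in wild-type mice the change was 0.06 (95% interval −0.19 to 0.32). The difference between these responses, wild-type minus PPARα-null, was 0.69 ± 0.17 (adjusted p = 0.0099). Between genotypes (PPARα-null minus wild-type) Prom1 passed neither test. In fasted mice it was −0.36 ± 0.12 with a fold of 1.29, just under the fold of 1.3 asked for, and it passed without PPARα-null fasted replicate 2 (−0.44) or replicate 3 (−0.42). In fed mice it was 0.33 ± 0.12 (adjusted p = 0.29), and it passed without PPARα-null fed replicate 2 (0.40).

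The promoters of Axin2 and Prom1 are shown because Axin2 1436845_at and Prom1 kept their fall in PPARα-null mice upon fasting under every setting tried. The 250 bases before the start site are taken from RefSeq (GRCm38.p6), where Prom1 has 2 starts. Capitals mark a GC box (GGGCGG on either strand), an element to which Sp1 family factors bind, which 32.7% of 32851 promoters hold in this window.
Axin2, chr11:108920099-108920348, + strand: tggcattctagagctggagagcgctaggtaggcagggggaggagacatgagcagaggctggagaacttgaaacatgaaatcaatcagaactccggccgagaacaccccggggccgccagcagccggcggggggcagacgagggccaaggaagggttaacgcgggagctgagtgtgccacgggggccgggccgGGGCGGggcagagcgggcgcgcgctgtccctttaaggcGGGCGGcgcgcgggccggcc
Prom1, chr5:44101737-44101986, - strand: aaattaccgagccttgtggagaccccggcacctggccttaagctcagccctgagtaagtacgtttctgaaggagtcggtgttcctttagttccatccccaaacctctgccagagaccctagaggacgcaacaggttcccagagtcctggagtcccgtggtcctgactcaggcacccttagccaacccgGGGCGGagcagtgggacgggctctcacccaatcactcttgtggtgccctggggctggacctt
Prom1, chr5:44094769-44095018, - strand: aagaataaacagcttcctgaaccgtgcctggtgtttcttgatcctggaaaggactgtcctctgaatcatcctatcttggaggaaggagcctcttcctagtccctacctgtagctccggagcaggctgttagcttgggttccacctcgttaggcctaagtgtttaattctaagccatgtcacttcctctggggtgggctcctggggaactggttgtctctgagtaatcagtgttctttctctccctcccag
None of these windows, nor the windows found for Ascl2, Cd44, Ephb2 and Ephb3, held a TCF motif (CTTTG followed by 2 bases that are each A or T, on either strand), which 14.8% of all promoters hold. None held the half-site of nuclear receptors (AGGTCA on either strand), which 14.0% hold. These letters are a description of the windows only, and the GC box was chosen after the windows had been read.

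Cd44 and Sox9 were also lower in PPARα-null fasted mice, by smaller amounts. CD44 is a hyaluronan receptor and a Wnt target of crypt cells, and it is also carried by leukocytes and stromal cells. Cd44 1423760_at gave 36.2, 43.3 and 34.5 in PPARα-null fasted arrays, against 55.2, 62.2 and 88.4 in PPARα-null fed arrays. In wild-type mice it gave 55.9, 57.5 and 51.2 in fasted arrays, against 88.4, 64.6 and 88.9 in fed arrays. The 3 PPARα-null fasted arrays were again below all other arrays, beside the shares given for Axin2, but the fed arrays of both genotypes were widely spread. Cd44 fell by 0.51 ± 0.17 upon fasting in PPARα-null mice (adjusted p = 0.021) and was −0.23 ± 0.17 in wild-type mice (95% interval −0.59 to 0.14). The difference between the responses was 0.29 ± 0.24 (adjusted p = 0.42), so a difference between the genotypes in the fasting change of Cd44 was not shown. In fasted mice Cd44 was 1.45-fold lower in PPARα-null than in wild-type mice (−0.54 ± 0.17, adjusted p = 0.023). The call upon fasting in PPARα-null mice lay close to the threshold (unadjusted p = 0.0098), and it was lost without any 1 of PPARα-null fed replicates 2 and 3 and PPARα-null fasted replicates 1 and 3 (−0.57, −0.32, −0.49 and −0.45). That between fasted genotypes was lost without any 1 array of these groups other than PPARα-null fasted replicate 2, with values of −0.58 to −0.47. The fainter Cd44 probe set, 1452483_a_at, gave 9.58 to 10.9 in PPARα-null fasted and 10.3 to 11.6 in wild-type fasted arrays, which overlapped.

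SOX9 is a transcription factor of stem, progenitor and Paneth cells. Sox9 1424950_at gave 20.2, 14.0 and 18.5 in PPARα-null fasted arrays, against 26.3, 22.9 and 26.0 in wild-type fasted arrays. It gave 25.8, 31.7 and 24.5 in PPARα-null fed arrays, against 22.9, 28.9 and 24.1 in wild-type fed arrays. The genotypes were apart in fasted mice and overlapped in fed mice. Sox9 was 1.44-fold lower in PPARα-null fasted than in wild-type fasted mice (−0.53 ± 0.15, adjusted p = 0.012), and the fasting responses differed by 0.64 ± 0.21 (wild-type minus PPARα-null, adjusted p = 0.040). Neither fasting change passed on its own, with −0.33 ± 0.15 in PPARα-null and 0.31 ± 0.15 in wild-type mice. The call between fasted genotypes was lost without PPARα-null fasted replicate 2 (−0.37) or wild-type fasted replicates 1 or 3 (−0.49 and −0.50). The difference between the responses was lost without any 1 of PPARα-null fasted replicates 2 and 3, PPARα-null fed replicates 1 and 2, wild-type fasted replicates 1 and 3 and wild-type fed replicates 1 and 3, with values of 0.48 to 0.68. The other Sox9 probe set, 1451538_at, gave 17.3, 17.9 and 19.7 in PPARα-null fasted arrays, against 19.0, 27.3 and 21.6 in wild-type fasted arrays, and did not pass (−0.29 ± 0.13, adjusted p = 0.082). As for Axin2, the Sox9 probe set 1424950_at was over 20 on average in wild-type fasted but not in PPARα-null fasted arrays.

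**Figure D2:**
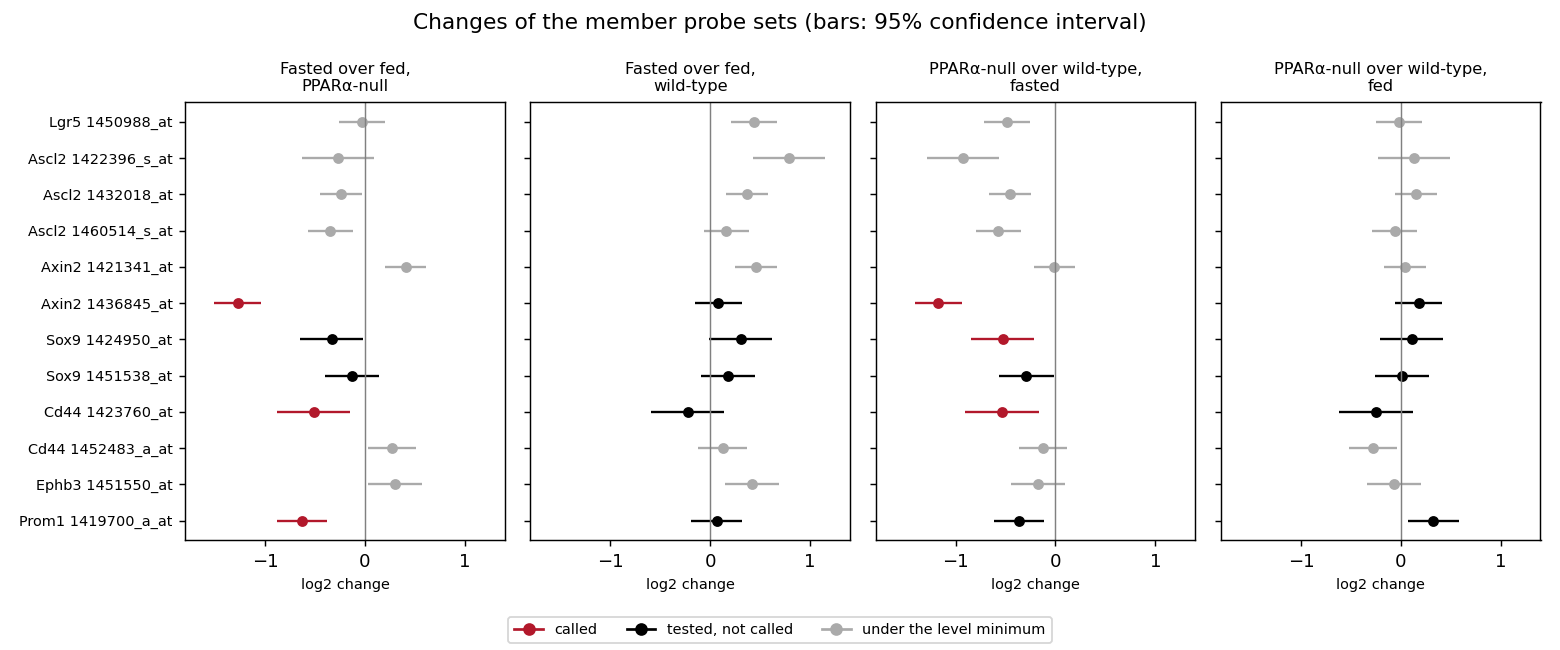
Log2 change (x axis) of each probe set for fasted over fed in PPARα-null and in wild-type mice, and for PPARα-null over wild-type in fasted and in fed mice. Points are limma estimates and bars 95% confidence intervals over 3 arrays a group; red passed the test, black did not, grey lay under the level minimum. All 12 estimates, which belong to 7 genes, are below 0 for PPARα-null over wild-type in fasted mice, from −1.17 to −0.01. Of these, 7 lay under the level minimum, probe sets of 1 gene are not independent, and the median of all tested probe sets there was −0.01. The intervals of Axin2 1421341_at, Cd44 1452483_a_at and Ephb3 include 0 there.

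Counted over the 5 tested probe sets, which passed a filter on level, 3 fell upon fasting in PPARα-null mice (Axin2, Cd44 and Prom1) and none rose, where 42.2% of all tested probe sets passed, 18.6% as higher and 23.6% as lower. This split depends on the scaling, with 1747 probe sets higher and 2208 lower relative to the common shift, against 765 higher and 4064 lower in the values as deposited. In wild-type mice none of the 5 passed, where 17.5% of all did, 10% as higher and 7.43% as lower (940 and 696 probe sets, against 233 and 2971 as deposited). Between fasted PPARα-null and wild-type mice 3 were lower (Axin2, Cd44 and Sox9) and none higher, where 30.8% of all passed, 14.0% as higher and 16.8% as lower. In this comparison Axin2 and both Sox9 probe sets passed the level minimum only through the wild-type fasted arrays, in which they were higher on average. Both this count and the median below include them. In fed mice none of the 5 passed, where 2.66% of all did, 1% as higher and 1.65% as lower. For the difference between the responses, wild-type minus PPARα-null, 3 were above 0 (Axin2, Sox9 and Prom1) and none below, where 23.8% of all passed, 14.6% above and 9.22% below. The median change of the 5 was −0.51 upon fasting in PPARα-null mice and 0.08 in wild-type mice, where the medians of all tested probe sets were −0.02 and 0.03. Between genotypes it was −0.53 in fasted mice and 0.11 in fed mice, where those of all were −0.01 and 0.03. The PPARα-null fasted arrays take part in 3 of these comparisons, which therefore are not independent.

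The most specific stem cell genes were faint. LGR5 is the R-spondin receptor that marks crypt base columnar stem cells. Lgr5 gave 13.9, 14.1 and 12.9 in PPARα-null fasted arrays, against 20.9, 16.7 and 19.7 in wild-type fasted arrays. In fed mice it gave 19.0, 17.4 and 15.6 in PPARα-null arrays, against 18.0, 18.7 and 15.9 in wild-type arrays. The genotypes did not overlap in fasted mice, and overlapped in fed mice. ASCL2 is a transcription factor on which these stem cells depend, and all of its 3 probe sets were lower in PPARα-null fasted than in wild-type fasted arrays without overlap. Ascl2 1432018_at gave 7.13, 6.89 and 8.45 in PPARα-null fasted arrays, against 9.54, 9.79 and 11.4 in wild-type fasted arrays. Ascl2 1460514_s_at gave 6.17, 6.26 and 5.58 in PPARα-null fasted arrays, against 9.38, 7.90 and 9.54 in wild-type fasted arrays. Ascl2 1422396_s_at ran from 3.24 to 3.66 in PPARα-null fasted and from 5.63 to 7.94 in wild-type fasted arrays. With no minimum on level, Lgr5 (−0.48 ± 0.11, adjusted p = 0.0064) and the 3 Ascl2 probe sets (−0.93, −0.45 and −0.57, adjusted p = 0.0017, 0.0055 and 0.0020) passed as lower, where 8.88% of all 22690 probe sets did. These intensities lie near the background of the array, and how much of them is signal was not tested. Upon fasting, relative to the common shift, Lgr5 was −0.03 in PPARα-null and 0.44 in wild-type mice. Ascl2 1432018_at, 1460514_s_at and 1422396_s_at were −0.24, −0.35 and −0.27 in PPARα-null mice and 0.37, 0.16 and 0.79 in wild-type mice. In the values as deposited Lgr5 was −0.34 in PPARα-null and 0.12 in wild-type mice. The Ascl2 probe sets were then −0.56, −0.66 and −0.58 in PPARα-null mice and 0.05, −0.15 and 0.47 in wild-type mice. Ephb3, which encodes a receptor that keeps Paneth cells at the crypt base, ran from 6.68 to 8.52 in PPARα-null fasted and from 7.44 to 9.29 in wild-type fasted arrays, and the groups overlapped.

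With the faint probe sets included, 8 of 12 had PPARα-null fasted arrays wholly below the wild-type fasted arrays and none above, where 15.6% of all 22690 probe sets were below and 19.1% above. Among tested probe sets alone 26.1% were below and 24.5% above. The 4 that overlapped were Axin2 1421341_at, Sox9 1451538_at, Cd44 1452483_a_at and Ephb3. In fed mice 10 of 12 overlapped, and 2 (an Ascl2 probe set and Prom1) were above in PPARα-null mice, where 7.32% of all probe sets and 10.2% of tested probe sets were.

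The wider pathway was read from lists of its parts, counted by gene. A gene was called where any of its probe sets passed, and of 5744 genes tested between fasted genotypes 16.4% were called higher and 19.7% lower. Upon fasting 21.3% of 5821 genes were called higher and 27.8% lower in PPARα-null mice, and 12.8% higher and 9.83% lower in wild-type mice. At the top of the pathway little was measurable. Of 23 genes for Wnt ligands, R-spondins and their secretion with a probe set, 1 passed the level minimum, Wls, which carries Wnt proteins to the cell surface (77.2, 67.9 and 44.1 in PPARα-null fasted arrays, against 73.4, 59.1 and 106 in wild-type fasted arrays), and it did not pass the test. Of 15 secreted antagonists 1 passed the level minimum, Dkk3, without a call. Of 4 receptor genes tested between fasted genotypes, 1 was lower, Lrp6, the Wnt co-receptor (−0.80), and 2 were higher, Fzd4 (0.65) and Ryk (0.76), which both bind Wnt proteins. Fzd4 passed the level minimum only through the PPARα-null fasted arrays and Lrp6, in this comparison, only through the wild-type fasted arrays. Lrp6 gave 17.0, 20.1 and 17.5 in PPARα-null fasted arrays, against 32.1, 32.0 and 30.7 in wild-type fasted arrays. Of 11 genes that regulate β-catenin, 2 were higher in PPARα-null fasted than in wild-type fasted mice, Axin1 and the casein kinase gene Csnk1e (1.03). Axin1, the scaffold related to Axin2, was also higher upon fasting in PPARα-null mice (0.87). Csnk1e was over 20 on average in PPARα-null fasted but not in wild-type fasted arrays. In the same list 2 were lower between fasted genotypes, Ctnnb1, which encodes β-catenin, and Tnks2 (−0.59), a tankyrase that marks Axin for destruction. Ctnnb1, like Ryk, was called only through a probe set other than its most abundant, and the most abundant did not pass. Probe sets of Csnk1d went both ways in PPARα-null fasted mice (1.14 and −1.07), as did those of Tle1, a co-repressor of TCF (0.92 and −0.88). Of 418 genes with at least 2 called probe sets in this comparison, 39 (9.33%) had calls in opposite directions. Of 7 genes for TCF factors and partners, 2 were lower (Ctbp2 and Tle4), and Tcf7l2, the main TCF of the intestinal epithelium, was 0.17 without a call.

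Among other Wnt target genes of the gut the calls went both ways. Between fasted genotypes 6 of 14 tested were lower in PPARα-null mice (Bmp4, Ccnd1, Ccnd2, Cdca7, Mmp7 and Myc) and 3 higher (Ets2, Id2 and Sp5), beside 19.7% of all genes lower and 16.4% higher, with a median of −0.23. Bmp4, Myc and Sp5 had a mean over 20 only in the group where they were higher. Myc, a transcription factor that drives growth, gave 10.3, 10.8 and 8.96 in PPARα-null fasted arrays, against 26.7, 27.8 and 33.7 in wild-type fasted arrays (−1.55, adjusted p = 3.2e-05). Its fasting responses went apart, with a change of −0.91 in PPARα-null mice and of 0.60 in wild-type mice (difference 1.50, adjusted p = 0.0014). Ccnd1, the gene of cyclin D1, fell in both genotypes upon fasting, by 1.79 in PPARα-null and by 1.37 in wild-type mice. Sp5, a feedback repressor of the pathway, gave 22.3, 23.1 and 16.6 in PPARα-null fasted arrays, against 12.6, 11.5 and 9.24 in wild-type fasted arrays, so it passed the level minimum only through the PPARα-null fasted arrays. In fed mice none of 11 tested target genes passed, where only 3.44% of all 5931 genes tested did.

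The other genes known from crypt base stem cells were counted in the same way. Between fasted genotypes 6 of 11 tested were lower in PPARα-null mice (Aqp4, Cdca7, Lrig1, Myb, Smoc2 and Sorl1) and 1 was higher (Bmi1), beside 19.7% of all genes lower and 16.4% higher, with a median of −0.40. Aqp4 had a mean over 20 only in the wild-type fasted arrays of this comparison. Smoc2, a secreted matrix protein of crypt base stem cells, gave 37.4, 28.3 and 35.2 in PPARα-null fasted arrays, against 50.7, 62.1 and 58.6 in wild-type fasted arrays. Its fasting change was −0.67 in PPARα-null and 0.18 in wild-type mice (difference 0.86, adjusted p = 0.0053). Cdca7, a gene of proliferating progenitors that stands on both lists, gave 20.4, 26.7 and 29.0 in PPARα-null fasted arrays, against 53.9, 59.5 and 50.1 in wild-type fasted arrays. Hopx, a marker of slowly cycling crypt cells, fell upon fasting in both genotypes, by 0.54 in PPARα-null and by 0.61 in wild-type mice. Of 5 tested Eph receptors and ephrins, 2 were higher in PPARα-null fasted than in wild-type fasted mice, Epha2 (1.11) and its ligand Efna1 (0.85), and Epha2 passed the level minimum only through the PPARα-null fasted arrays. The ligands of the EphB receptors, Efnb1 and Efnb2, were −0.14 and −0.08 without a call.

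**Figure D3:**
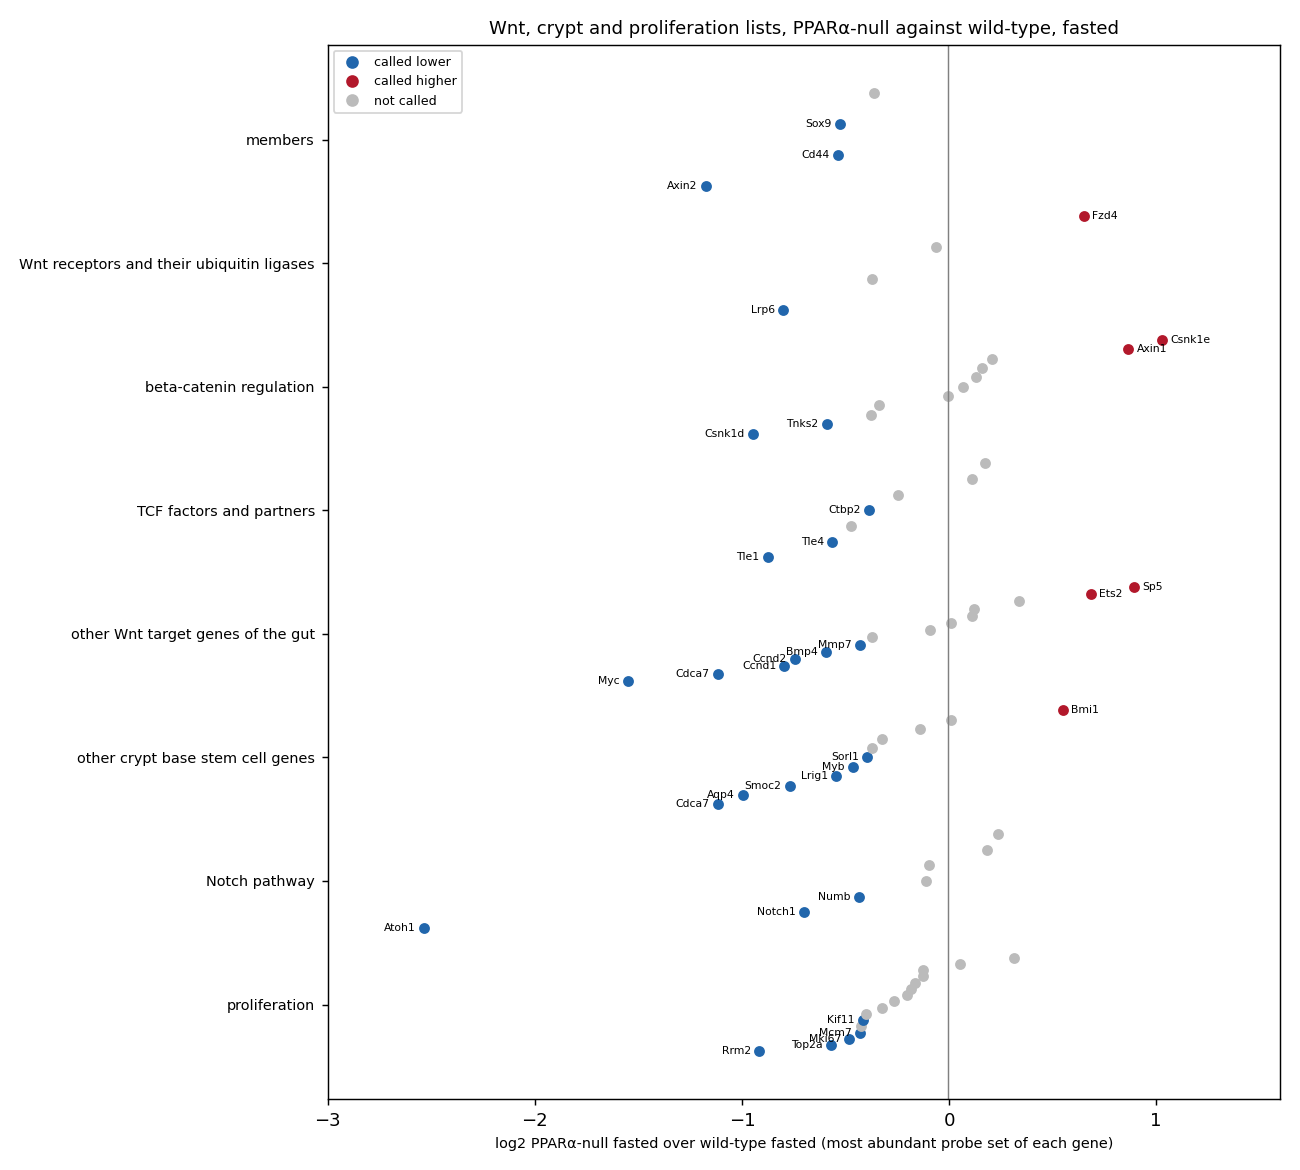
Log2 of PPARα-null fasted over wild-type fasted mice (x axis) for the most abundant tested probe set of each gene, by list. Blue points passed the test as lower, red as higher, grey did not pass, and the vertical line is the median of all tested probe sets (−0.01). Atoh1 lies farthest to the left (−2.53) and was over 20 on average in the wild-type fasted but not in the PPARα-null fasted arrays. Genes called only through another probe set, such as Ryk, Id2 and Ctnnb1, appear grey.

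Genes of the Notch pathway and of proliferation were counted beside the Wnt genes. Of 7 Notch pathway genes tested between fasted genotypes 3 were lower in PPARα-null mice (Atoh1, Notch1 and Numb) and none higher, beside 19.7% of all genes lower and 16.4% higher. Atoh1, the factor that commits progenitors to secretory fates and that Notch holds down, gave 15.9, 31.1 and 11.1 in PPARα-null fasted arrays, against 96.1, 93.0 and 119 in wild-type fasted arrays. In this comparison Atoh1 passed the level minimum only through the wild-type fasted arrays, in which it was higher. Of the proliferation genes 14 of 20 fell upon fasting in PPARα-null mice and 5 of 20 in wild-type mice, and none rose in either, beside 27.8% of all genes lower in PPARα-null and 9.83% in wild-type mice. Between fasted genotypes 5 of 16 were lower in PPARα-null mice and none higher. Of these 5, Kif11 passed the level minimum only through the wild-type fasted arrays. For the difference between the responses, wild-type minus PPARα-null, 6 of 20 passed above 0 (Kif11, Mcm5, Mcm7, Mki67, Rrm2 and Top2a) and none below. Of all 6107 genes tested for it, 18.0% passed above 0 and 11.1% below. Sums of intensity are of the values as deposited, so the common shift is part of any difference between fasted and fed sums. The summed intensity of the proliferation list was 2007 to 2184 in PPARα-null fasted arrays and 3678 to 4035 in PPARα-null fed arrays. It was 2226 to 2825 in wild-type fasted arrays and 3519 to 3892 in wild-type fed arrays.

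Markers of other cells moved with the Wnt genes in part. In whole tissue, fewer cells of a type and less RNA per cell cannot be told apart. Of all 5744 genes tested between fasted genotypes, 19.7% were lower in PPARα-null mice and 16.4% higher. Of 11 leukocyte markers tested between fasted genotypes 8 were lower in PPARα-null mice. Cd8a and Gzmb among them passed the level minimum only through the wild-type fasted arrays. The summed intensity of the list was 5540 to 6702 in PPARα-null fasted and 8225 to 9114 in wild-type fasted arrays. In fed mice 5 of 13 leukocyte markers were lower in PPARα-null mice, beside 2.02% of 5931 genes lower and 1.42% higher. The sums in fed mice were 10680 to 11530 in PPARα-null and 12740 to 13330 in wild-type arrays. Of 9 fibroblast and matrix markers 2 were lower in PPARα-null fasted mice (Col1a1 and Col3a1), and of 9 smooth muscle markers none. Col1a1 passed the level minimum there only through the wild-type fasted arrays. Upon fasting 5 of the 9 matrix markers fell in each genotype, and Pdgfra rose in PPARα-null mice. Of 9 smooth muscle markers 6 fell in wild-type and 1 in PPARα-null mice, and of 13 leukocyte markers 5 and 8, with none rising. Of all 5821 genes tested upon fasting, 9.83% were lower in wild-type and 27.8% in PPARα-null mice. The Paneth cell sum was 19730 to 23950 in PPARα-null fasted and 24110 to 27010 in wild-type fasted arrays, and the enterocyte sums overlapped. Among the Paneth cell genes Pla2g2a went the other way and was higher in PPARα-null fasted than in wild-type fasted mice (1.16). The goblet cell sum was 27810 to 29070 in PPARα-null fasted and 25160 to 27210 in wild-type fasted arrays. The calls did not follow this sum, since of 7 goblet cell markers 2 were lower in PPARα-null fasted mice (Agr2 and Clca1) and none higher. Of 9 enteroendocrine markers 4 were higher in PPARα-null fasted mice (Chga, Neurod1, Pyy and Sct), with sums of 3507 to 4142 in PPARα-null fasted and 3015 to 3500 in wild-type fasted arrays. Neurod1 passed the level minimum only through the PPARα-null fasted arrays. The ratio of 3′ to 5′ signal of β-actin, a sign of RNA integrity, was 1.68 to 1.77 in PPARα-null fasted and 1.77 to 1.89 in wild-type fasted arrays. The part of these in the values of the Wnt and stem cell genes was not tested. Without PPARα-null fasted replicate 2, the array with little pancreas signal, Axin2 was −1.24 and Prom1 −0.44 between fasted genotypes.

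**Figure D4:**
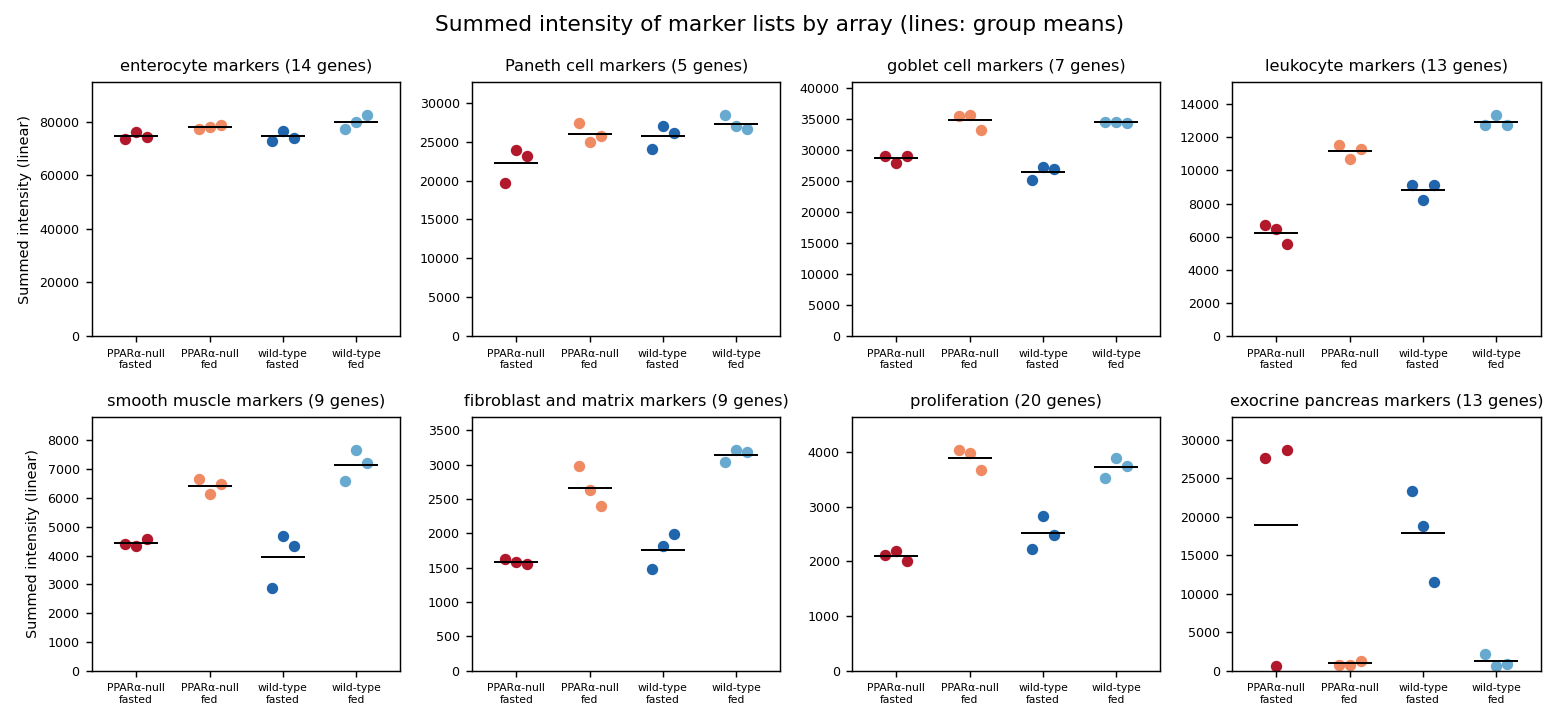
Summed intensity (linear, from 0) of marker lists in each array, over the most abundant probe set of each gene with a mean over 20 in any group, in the same order of groups. Points are arrays and lines group means (n = 3). Values are as deposited, with no shift taken off the fasted arrays. Leukocyte markers are lowest in the PPARα-null fasted arrays (5540 to 6702), and exocrine pancreas markers are high in 5 of the 6 fasted arrays.

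The genes whose pattern over the 12 arrays was most like that of each measurable gene were looked up among 9023 probe sets. Axin2 was followed most closely by Trim27, Ikbke (Pearson r = 0.983 for both) and Abhd1 (0.979). Prom1 was followed by Galnt4 (0.962), Cd151 (0.928) and Uba7 (0.918). Cd44 was followed by Atp5j2 (0.946), Serbp1 (0.918) and Fam174a (0.907), and Sox9 by Coasy (0.919), Rassf1 (0.878) and Numa1 (0.872). None of these 12 genes is on the lists used here. The correlations are over arrays that share 4 groups, and they describe the group pattern as much as the arrays within it.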

How the data were processed

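RNA of 3 biological replicates per group was hybridized to Affymetrix MOE430A arrays. The deposited values are intensity values on the linear scale, made by the authors with GCRMA (version 2.20 in the submitters' processing notes), which corrects background by probe sequence, quantile-normalizes and summarizes the probes of each set. Fed and fasted arrays differ in distribution and in decimals. Values were taken to log2, and 1 mean per group was fitted over all 12 arrays with limma 3.58.1 in R 4.3.3. A constant of −0.32 (log2), the median difference of fasted from fed arrays over probe sets averaging above 20 in the fed wild-type group, was taken off all fasted arrays. The study's methods give a p under 0.01, a change over 1.3-fold and a level over 20 in fed wild-type mice. Calls here needed the first 2, with p read as unadjusted, and the third in fasting tests; genotype tests took probe sets over 20 in either group, a choice made here. The difference between the responses passed at an adjusted p under 0.05, among those over 20 in any group. The Benjamini-Hochberg adjustment ran over every probe set of a test. The code was tested on simulated data. Of 22690 probe sets 20393 carry 1 symbol, and these name genes; a gene was called where 1 or more of its probe sets was. A list's median takes the most abundant probe set of each gene. All genes of the title set were described. From each other list, calls were counted, and up to 3 genes per direction of a fasting contrast, 2 per direction of a genotype contrast and 2 of the most abundant without a call could be named; Ctnnb1, Tle4 and genes named in full counts were named after their values had been seen. Likeness was Pearson's r over 12 arrays after the constant was taken off. The genes, lists and rules were chosen with earlier results of these data known. The number of arrays limits the precision. Python 3 served for summaries and plots.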

Additional observations from a re-analysis of the deposited data

Results flagged for a closer look

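For 3 probe sets the fasting response differed between the genotypes by a test of the difference itself (limma, wild-type minus PPARα-null, log2). Axin2 1436845_at differed by 1.35, with 3 PPARα-null fasted arrays below every other array. Of all tested probe sets, as deposited, 57.4% had these arrays wholly below the PPARα-null fed arrays and 26.1% wholly below the wild-type fasted arrays. Prom1 1419700_a_at differed by 0.69, and Sox9 1424950_at by 0.64. The differences of Axin2 and Prom1 passed without any 1 of the 12 arrays (1.27 to 1.46 and 0.56 to 0.77), and that of Sox9 passed without 4 of the 12 when each was left out in turn (0.48 to 0.75 over all). Groups of 3 arrays are too small for a test of single outlying arrays.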

How the results depend on the processing

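The number of Wnt and stem cell genes called, main values 3 upon fasting in PPARα-null mice, 0 in wild-type mice, 3 between fasted genotypes, 0 between fed genotypes and 3 for the difference between the responses, moved by over 1.5 times in few settings. As deposited, with no constant taken off, each fasting change is lower by 0.32, and 1 gene was called upon fasting in wild-type mice (Cd44, lower); all calls then split into 233 higher and 2971 lower in wild-type mice, against 940 and 696, and into 765 and 4064 in PPARα-null mice, against 1747 and 2208. With no minimum on level, 4 genes were called higher upon fasting in wild-type mice (Ascl2, Axin2, Ephb3 and Lgr5), where calls of all probe sets split into 2430 higher and 765 lower, in PPARα-null mice 1 was called higher and 3 lower upon fasting, Axin2 in both directions by different probe sets (4794 and 2554 of all), and 5 were called lower between fasted genotypes (Ascl2, Axin2, Cd44, Lgr5 and Sox9). With each array centred on its median, all calls for the difference between the responses split into 1106 above and 1235 below 0, against 1444 and 910. Leaving out 1 array in turn gave 2 to 3 genes upon fasting in PPARα-null mice, 0 in wild-type mice, 1 to 3 between fasted genotypes (1, Axin2, without wild-type fasted replicate 3), 0 to 1 between fed genotypes (Prom1, without PPARα-null fed replicate 2) and 2 to 4 for the difference between the responses. A group reduced to 2 arrays borrowed its spread from the other 3 groups. Axin2 1436845_at kept each of its 3 calls in every setting, and Prom1 both of its own. Cd44 lost its fasting call under quantile normalization (−0.47), median centring (−0.45) and a fit of only the groups compared (−0.51), and its genotype call under quantile normalization (−0.49). The difference for Sox9 did not pass under quantile normalization (0.59), centring (0.55) or no minimum on level (0.64). The replicate numbers were not taken to pair the samples. Between same-numbered arrays, deviations from the group means correlated at −0.197 to 0.234 over probe sets, which with 3 arrays a group cannot decide whether samples were paired. With the replicate block 2 genes were called upon fasting in PPARα-null mice, 2 between fasted genotypes and 2 for the difference, and Cd44 (−0.51 and −0.54) and Sox9 (0.64) lost calls. No called value changed sign. Values without a call did: as deposited, wild-type fasting values of Axin2 (−0.24), Prom1 (−0.25) and both Sox9 probe sets (−0.01 and −0.14); Axin2 also under quantile normalization (−0.02); and Sox9 between fed genotypes for 1451538_at under centring (−0.03) and in some fits without 1 array. Faint probe sets limit what can be said of Lgr5, Ascl2 and Ephb3.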
